A study of Mus musculus with 14 samples.

Results

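Myogenin occupancy was compared between differentiating C2C12 cells with and without knockdown of Myolinc, a long noncoding RNA. Its members were all peaks of the 2 Myogenin lists of the series, 115000 from control cells and 20441 after knockdown, together 135441 of the 517016 peaks in the 10 lists of the series. They were taken from each list after peaks on the mitochondrial genome were dropped, which removed 0 control peaks and 12 of the 20453 peaks listed after knockdown. The study asked what Myolinc does in muscle differentiation, and the 14 samples covered TDP-43, MyoD, Myogenin, elongating RNA polymerase II and input or IgG. Both Myogenin libraries came from chromatin immunoprecipitation with sequencing (ChIP-seq) of C2C12, an immortalized mouse myoblast line that fuses into myotubes when serum is lowered, at day 2 of differentiation, with the same Myogenin antibody. The knockdown cells, labelled siMyolinc, had received an siRNA against Myolinc at 10 nM by transient transfection before differentiation began. The protocol given for every sample describes siRNA transfection, but the labels of the control library name no siRNA. Each condition had 1 library, so no difference below has a replicate check or a test, and condition cannot be told apart from library. The level of Myolinc is not measured by ChIP-seq, and the share of cells that had fused is not given by the labels.

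Myogenin is a basic helix-loop-helix transcription factor of the MyoD family, needed for myoblasts to become muscle fibres. It binds DNA paired with a widely expressed E protein, such as those encoded by Tcf3, Tcf4 and Tcf12, at a short motif called the E-box (CANNTG), with CAGCTG as a favoured form. In differentiating muscle cells MyoD family factors are known to bind near genes of the contractile apparatus, the neuromuscular junction and cell fusion, often away from promoters.

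Promoter sequences at 5 of the named peaks show what the lists placed at gene starts. They were chosen after their values were seen: Mybph and Ttn for control peaks at contractile genes, Myom3 for a siMyolinc peak at such a gene, and H4c12 and Rtl5 for windows that held peak centres of both lists and a CAGCTG. All are RefSeq sequence of mm10 (GRCm38.p6), from 250 bases before the transcription start to 30 after it, read 5′ to 3′ on the strand of the gene, and capitals mark CAGCTG on either strand. Mybph lies at chr1:134193198-134193477 (plus strand), Ttn at chr2:76982518-76982797 (minus), Myom3 at chr4:135759465-135759744 (plus), H4c12, named Hist1h4k in the lists, at chr13:21750524-21750803 (minus), and Rtl5, named Rgag4 in the lists, at chrX:102071278-102071557 (minus).
Mybph: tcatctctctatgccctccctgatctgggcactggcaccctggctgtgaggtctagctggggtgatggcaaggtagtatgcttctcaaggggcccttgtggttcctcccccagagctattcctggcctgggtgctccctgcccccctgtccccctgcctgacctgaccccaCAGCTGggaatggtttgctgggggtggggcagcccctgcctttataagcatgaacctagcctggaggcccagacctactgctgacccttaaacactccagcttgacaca
Ttn: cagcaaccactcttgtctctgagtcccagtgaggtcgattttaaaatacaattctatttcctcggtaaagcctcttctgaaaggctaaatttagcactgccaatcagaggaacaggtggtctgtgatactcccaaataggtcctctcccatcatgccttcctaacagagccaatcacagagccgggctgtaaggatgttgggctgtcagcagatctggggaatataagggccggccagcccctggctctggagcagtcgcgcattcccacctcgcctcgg
Myom3: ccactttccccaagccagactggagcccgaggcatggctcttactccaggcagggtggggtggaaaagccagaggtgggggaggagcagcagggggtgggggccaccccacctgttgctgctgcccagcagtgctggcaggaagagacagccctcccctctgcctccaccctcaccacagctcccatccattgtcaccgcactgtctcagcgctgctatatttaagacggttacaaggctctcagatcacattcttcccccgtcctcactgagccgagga
H4c12: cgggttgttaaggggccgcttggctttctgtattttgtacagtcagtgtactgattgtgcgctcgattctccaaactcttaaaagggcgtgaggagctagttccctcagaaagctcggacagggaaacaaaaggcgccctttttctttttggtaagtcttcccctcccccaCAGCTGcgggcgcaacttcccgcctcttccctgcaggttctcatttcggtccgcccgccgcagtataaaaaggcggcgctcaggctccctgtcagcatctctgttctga
Rtl5: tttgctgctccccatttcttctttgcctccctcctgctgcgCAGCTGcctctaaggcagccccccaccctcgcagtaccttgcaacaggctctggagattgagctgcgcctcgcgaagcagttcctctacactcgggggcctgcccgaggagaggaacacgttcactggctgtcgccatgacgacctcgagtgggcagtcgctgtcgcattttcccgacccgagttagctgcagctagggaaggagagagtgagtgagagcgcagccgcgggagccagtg
In Mybph, which encodes myosin-binding protein H, the CAGCTG starts at base 172 and the control peak centre fell on base 176, inside it. In H4c12, a histone H4 gene, the CAGCTG also starts at base 172, with the siMyolinc centre at base 167 and the control centre at base 152. In Rtl5, a gene derived from a retrotransposon, it starts at base 42, away from the control centre at base 128 and the siMyolinc centre at base 214. The stretches of Ttn (titin, the spring of the sarcomere) and Myom3 (the M-band protein myomesin 3) hold no CAGCTG, and their peak centres fell on base 137 in control and base 203 after knockdown.

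The lists differed in kind before any gene was considered. Control peaks were 219 bp wide at the median and siMyolinc peaks 75 bp. In each list the authors' peak scores rose in equal steps, and a step was read here as the worth of 1 sequence tag. On that reading a control peak held a median of 15 tags, between 6 and 112, and a siMyolinc peak a median of 137, between 5 and 628. The siMyolinc list was thus made of fewer, narrower and far taller peaks: 61.4% of them held more tags than the tallest control peak, and 3.80% held no more than the control median. If scores are scaled to 10000000 tags, the default of the HOMER program that is not stated in the sources used here, the libraries held 3400120 and 3040129 tags, so depth was similar. On the same assumption 54.3% of the control tags and 92.8% of the siMyolinc tags lay inside peaks, over 25.2 and 1.53 Mb. The median focus ratio, the authors' fraction of tags that are placed as a single tight peak would have them, was 0.938 in control and 0.993 after knockdown.

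**Figure D1:**
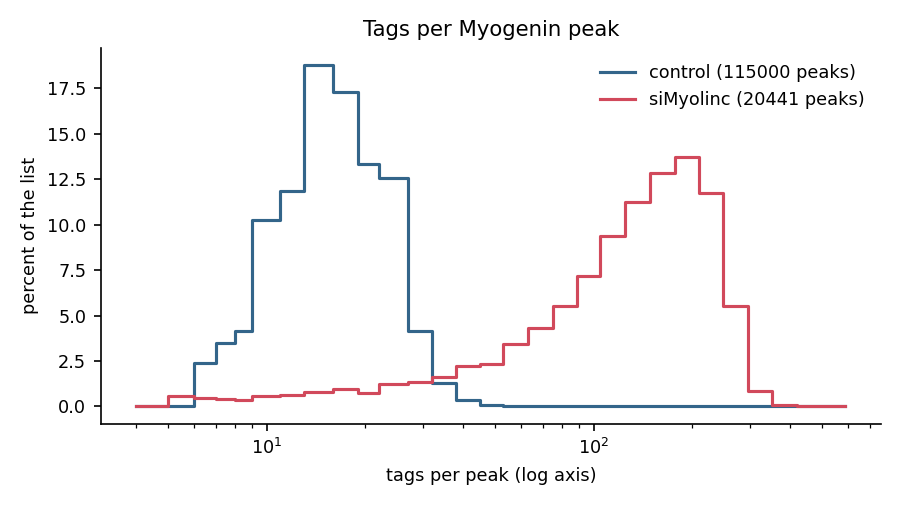
Tags per peak (log axis) against the percent of each Myogenin list, control in blue and siMyolinc in red. The medians are 15 and 137 tags, and 61.4% of the siMyolinc list lies beyond the tallest control peak.

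Since the control list was longer, the main shares and counts are given for all control peaks and for the 20441 highest-scoring ones, the equal-length control list. That list ended at 22 tags, with 3140 of the 3952 peaks tied there taken by a seeded draw, and its median was 25 tags. Scores of different libraries are not on a common scale of occupancy, and no single site was compared by its height between conditions. All intervals are 95% intervals (Wilson for shares, Newcombe for differences of shares, exact Poisson for tags) and reflect counting error alone. They treat what is counted as independent and make no allowance for copies made by PCR, which are no independent molecules.

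After knockdown, a larger share of Myogenin peaks lay in exons and at promoters, and a smaller share lay between genes. Exon peaks made up 6.25% of the siMyolinc list (5.92 to 6.59%), 1.84% of the control list (1.76 to 1.92%) and 1.90% of the equal-length control list. Promoter peaks, those that the authors' annotation classes as promoter-TSS, made up 3.10%, 1.44% and 1.25%, a difference of 1.66 percentage points against all control peaks (1.42 to 1.92). Intergenic peaks made up 48.0%, 56.3% and 55.3%, a difference of -8.26 points (-9.00 to -7.52). These differences were wider than counting error, which is the only error that 1 library per condition gives.

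Introns took much the same share of every list, 38.9% after knockdown, 38.1% in control and 39.1% at equal length. First introns held 28.1% of the intron peaks after knockdown and 27.3% in control. First exons held 12.4% of the exon peaks after knockdown, 9.52% in control and 9.02% at equal length. Most exon peaks thus lay in later exons in every list. Peaks in 5′ UTRs made up 0.504% of the siMyolinc list, 0.107% of the control list and 0.0636% at equal length, and peaks in 3′ UTRs 1.45%, 0.929% and 0.988%. Peaks that the detailed annotation puts in CpG islands, the unmethylated CG-rich stretches found at many promoters, made up 1.09% after knockdown, 0.226% in control and 0.0881% at equal length. In these lists that label was used for intron and intergenic peaks, and for 0 promoter and 0 exon peaks.

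**Figure D2:**
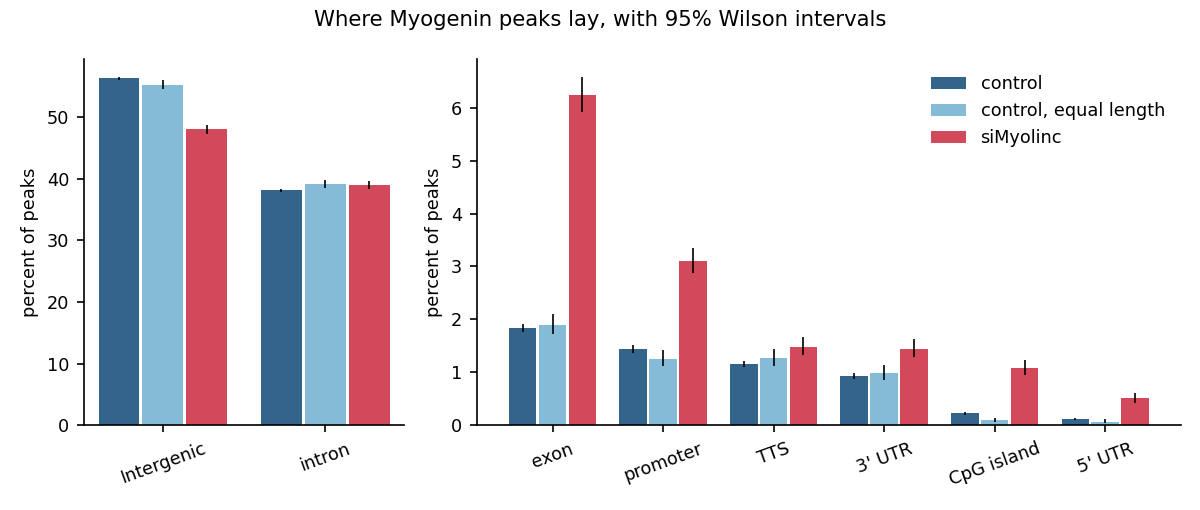
Percent of Myogenin peaks in each annotation class, with 95% Wilson intervals, for all control peaks, the equal-length control list and the siMyolinc list; both axes start at 0. Exon peaks stand at 6.25% after knockdown against 1.84% in control, whereas introns stand between 38.1% and 39.1%.

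Repeats held a smaller share of peaks after knockdown, 32.8% against 37.7% in control and 34.8% at equal length. Against all control peaks LINE elements differed most (11.3% against 14.8%), with SINE elements at 7.87% against 9.16% and LTR elements at 8.94% against 9.70%. Simple repeats and satellites went the other way, at 2.27% against 1.78% and 0.269% against 0.106%. At equal length the control shares of these were lower still, 0.577% and 0.0489%, and LTR elements differed most, by -2.11 percentage points, against -0.99 for LINE elements. Peaks that met a peak of no other list of the series made up 86.8% of the siMyolinc list, 92.1% of the control list and 92.5% at equal length. Peaks at places met by 5 or more lists made up 0.298%, 0.127% and 0.108%.

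Myogenin peaks lay nearer to transcription starts after knockdown. The median distance to the nearest start was 34392 bp, against 54286.5 bp in control and 53649 bp at equal length. Within 1000 bp of a start lay 5.90% of siMyolinc peaks (5.59 to 6.24%), 2.47% of control peaks (2.38 to 2.56%) and 1.98% of equal-length control peaks. Within 100 bp these shares were 1.04%, 0.343% and 0.176%, and within 10000 bp 24.7%, 17.6% and 16.9%. The contrast was thus sharpest close to the start. Of the peaks within 1000 bp, 39.6% lay upstream of the start after knockdown (36.9 to 42.4%), 46.5% in control (44.7 to 48.4%) and 56.2% at equal length.

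The share of promoter peaks in the siMyolinc list was larger among its lower-scoring peaks, and to a smaller degree this held in control. Each list was cut into 10 deciles by score, decile 1 being the highest. In decile 1, promoter peaks made up 1.32% of siMyolinc peaks (0.909 to 1.91%) and 1.34% of control peaks (1.14 to 1.57%), so the lists did not differ there beyond counting error. In decile 4 they made up 2.98% (2.33 to 3.81%) and 1.24% (1.06 to 1.46%), so the upper part of the list also held an excess. In decile 9 they made up 5.23% (4.35 to 6.29%) and 1.75%, and in decile 10 4.70% and 1.83% (1.61 to 2.10%). In control the promoter share thus also rose, but by less, and the CpG island share went from 0.113% in decile 1 to 0.574% in decile 10. CpG island peaks followed the same course in the siMyolinc list, from 0.0489% in decile 1 to 2.79% in decile 10. Exon peaks did not: their share was 4.55% in decile 1, 8.37% in decile 9 and 4.75% in decile 10. Promoter peaks held a median of 104 tags after knockdown and CpG island peaks 75.5, against 139 for intergenic and for intron peaks. In control the medians were 14, 12, 15 and 16.

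**Figure D3:**
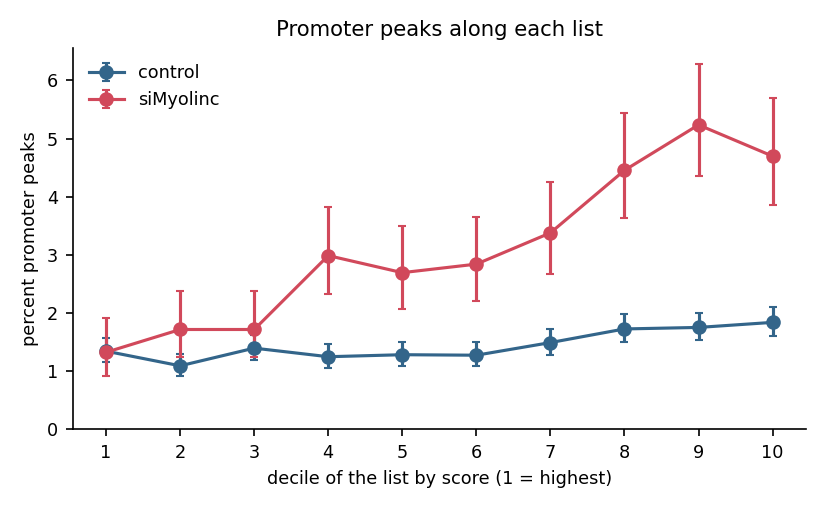
Percent of promoter peaks in each decile of a list ordered by score, 1 being the highest, with 95% Wilson intervals. The siMyolinc line rises from 1.32% to 5.23% in decile 9, and the control line rises less, from 1.09% in decile 2 to 1.83% in decile 10.

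Few sites were found in both conditions. Of the siMyolinc peaks, 297 (1.45%, 1.30 to 1.63%) had a control centre within 100 bp, and these matched 297 control peaks, 0.258% of the control list. Against the equal-length control list the number was 48 (0.235%). Counted by intervals that overlap by 1 bp or more it was 408 (2.00%), and the median distance from a siMyolinc centre to the nearest control centre was 6750 bp. Nearly all siMyolinc peaks therefore lay where the control list had none.

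Around siMyolinc centres the control list was densest at short range. Control centres stood at 71.7 per Mb closer than 100 bp, from 293 pairs, and at 48.7 per Mb between 5000 and 10000 bp away, a ratio of 1.47. At the density of that flank 199 pairs would lie closer than 100 bp. Between 150 and 200 bp it was 45.0 per Mb, and from 200 to 750 bp between 50.1 and 54.5 per Mb. The ratio was 2.62 around exon peaks, 1.86 around promoter peaks, 1.45 around intergenic peaks and 1.29 around intron peaks. It was 1.27 with the equal-length control list. When repeats were left out of both lists the ratio was 2.06, from 70.3 per Mb at short range and 34.2 per Mb in the flank. The short-range density thus hardly changed and the flank fell, so this higher ratio does not show more shared sites outside repeats.

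**Figure D4:**
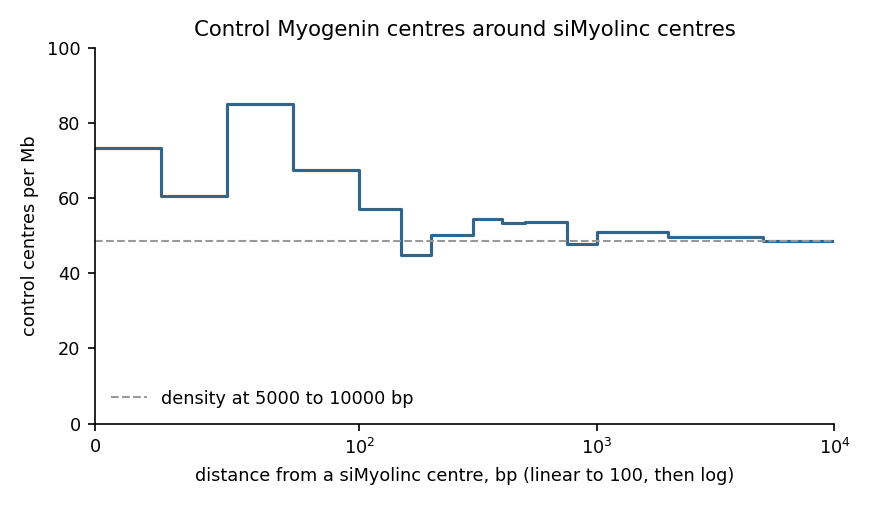
Control Myogenin centres per Mb against distance from a siMyolinc centre (linear to 100 bp, then log). The density lies between 60.7 and 85.1 per Mb within 100 bp and between 45.0 and 54.5 per Mb beyond 150 bp, around the flank value of 48.7 per Mb, drawn dashed.

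Around siMyolinc Myogenin peaks the ratio was higher with every other list, except control MyoD, than with control Myogenin. It was 6.81, 7.48 and 7.81 with the control TDP-43 lists, 7.13 with the control polymerase list and 3.13 with the siMyolinc TDP-43 list. It was 1.97 with MyoD and 1.83 with polymerase after knockdown, and 1.09 with MyoD in control. The control Myogenin list also had its highest ratios with control TDP-43, 3.30 to 4.09, and control polymerase, 3.98. Its ratio with control MyoD was 1.27. When peaks that met any of the 8 other lists were left out, 213 siMyolinc peaks still had a control centre within 100 bp and the ratio was 1.34. Around the siMyolinc peaks that did meet another list it was 2.95. These ratios have no test, and the part of places shared by many libraries was not tested further.

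The 297 shared sites were richer in exons than the remaining siMyolinc peaks, at 12.5% (9.17 to 16.7%) against 6.16%. They met a further list in 25.6% of cases (21.0 to 30.8%), against 11.9%. Promoters made up 4.38% (2.58 to 7.34%) against 3.08%, and repeats 29.3% against 32.9%, both within counting error. Their heights were ordinary in both lists, with a median of 146 tags against 137 after knockdown and 15 against 15 in control. Of the shared sites, 188 lay outside repeats and outside places met by 5 or more lists.

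The 10 of these 188 that ranked best in both lists were named for no gene of the muscle lists, and most lay between genes or in introns. The muscle lists hold 122 genes, beside 21900 protein-coding genes in all, so their absence from 10 sites shows nothing particular. Among all shared sites, a site in a LINE element was named for Myoz2, a gene of the Z-disc list, with centres 35 bp apart. The nearest named genes were Vwde, Tmem65, BC068157, Prl2c3 (a prolactin family hormone), Ssbp3, Stk17b (a serine/threonine kinase), Dst (dystonin, a cytoskeletal linker expressed in muscle), Mrpl12 (a mitochondrial ribosomal protein), B4galnt1 (ganglioside synthesis) and Rbm15 (an RNA-binding protein). The Dst site lay in intron 74 of 102, at chr1:34263856-34263930 after knockdown and chr1:34263700-34263918 in control, with 157 and 27 tags. The Rbm15 site, at chr3:107324789-107324863 and chr3:107324717-107324935, had its centres 0 bp apart, 8463 bp downstream of the start, with 265 and 23 tags. The B4galnt1 site was the nearest to a start, 246 bp downstream of it, with 119 and 30 tags.

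Few promoters were listed in both conditions. Promoter peaks of control named 1622 genes and those of the siMyolinc list 620. They had 48 genes in common, 2.96% of the former and 7.74% of the latter. Of all 21900 protein-coding genes 6.46% had a control promoter peak and 2.46% a siMyolinc one, so both shares were near that background. At equal length the lists named 256 and 620 genes, with 7 in both, 1.13% of the siMyolinc genes against 1.05% of protein-coding genes. In 13 of the 48 genes the centres lay within 100 bp of each other, and in the other 35 the lists marked different places. A promoter class refers to a transcript that need not belong to the gene named for the peak.

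The 13 genes with the same promoter site held none of the muscle lists. Those lists hold 122 genes, beside 21900 protein-coding genes in all, so their absence from 13 genes shows nothing particular. Among them were Npm2 (an oocyte nucleoplasmin), Batf3 (a leucine zipper transcription factor), Hist1h4k (a histone H4 gene), Gpr98 (an adhesion receptor, now Adgrv1), Krt7 (a keratin), Smpd5 (a sphingomyelinase), Tmem171, Rgag4, Gm12359 and the microRNA genes Mir8120, Mir320 and Mir103-1. Npm2 had the most tags after knockdown, 245 at chr14:70653771-70653845, against 16 at chr14:70653726-70653944 in control, at -724 bp from the start. Hist1h4k had 119 and 13 tags at -132 bp, and its sequence is shown above as H4c12. The lists and the RefSeq window use different starts for it, so this distance does not match the position in the window. Krt7 had 124 and 7 tags at -90 bp, with centres 6 bp apart. Rgag4, shown above as Rtl5, had 53 and 10 tags at -37 bp. Of the 13 places, Gpr98 met 4 lists in all, Hist1h4k, Rgag4 and Smpd5 met 3 and the others met only these Myogenin lists.

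The tallest promoter peak of control lay at Sh3tc1, with 53 tags at chr5:35729137-35729355, 30 bp downstream of the start, a place met by 4 lists. It was followed by Serp2 (48 tags), Tfg (a protein of endoplasmic reticulum export, 47), Cacna2d1 (a calcium channel subunit, 46), Nfatc2 (a calcium-regulated factor with a known part in myotube growth, 40), Pinx1 (39), Slc6a9 (a glycine transporter, 39), the noncoding Gm20744 (38), Gpr62 (38) and Tubb4b (a tubulin, 37). The nearest siMyolinc centre lay between 4301 bp (Gpr62) and 126178 bp (Tfg) away. None of these 10 promoters therefore carried a siMyolinc peak.

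After knockdown the tallest promoter peak lay at Tspan2, a tetraspanin gene, with 390 tags at chr3:102734377-102734451, at -356 bp from the start. Next came Mog (a myelin protein, 342 tags), the olfactory receptor gene Olfr133 (309), Mir6366 (300), Phf20 (289), Timm13 (a mitochondrial import factor, 269), Olfr904 (267), Hhipl2 (260), Sectm1b (259) and Psmb8 (an immunoproteasome subunit, 258). The nearest control centre lay between 1159 bp (Olfr133) and 23094 bp (Tspan2) away. Neither set of 10 led with contractile genes, and all of the siMyolinc ones met no other list of the series.

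Muscle genes were followed through 8 lists with 122 genes: MyoD family and partners, thin filament, thick filament and M-band, Z-disc, neuromuscular junction, excitation-contraction coupling, energy metabolism, and fusion with cell cycle exit. In control, 24 of the 122 (19.7%, 13.6 to 27.6%) had a Myogenin centre within 1000 bp of the start, against 10.8% of the 21900 protein-coding genes. After knockdown it was 6 (4.92%, 2.27 to 10.3%), against 4.74%, and in the equal-length control list 5 (4.10%), against 1.61%. Within 1000 bp the siMyolinc share was thus near its background and the share of the full control list above it. The 24 and the 6 had 0 genes in common, where over all genes 138 of the 1160 named within 1000 bp after knockdown (11.9%) were also named in control. So small a count shows nothing particular to muscle genes. Cacna2d1 and Nfatc2, 2 of the 5 at equal length, were on the lists with their peaks already known, and without them it was 3 of 120 (2.50%, 0.854 to 7.09%), with 22 (18.3%) in the full control list.

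By the promoter class the picture was alike. A promoter peak was listed for 17 muscle genes in control (13.9%, 8.89 to 21.2%), against 6.46% of protein-coding genes, for 3 after knockdown (2.46%), against 2.46%, and for 2 at equal length (1.64%), against 1.05%. These 2 were again Cacna2d1 and Nfatc2. Without them the counts were 15 of 120 (12.5%) in control, 3 after knockdown and 0 at equal length. Over all genes the equal-length list likewise kept 256 of the 1622 named by control promoter peaks.

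Within 10000 bp of the start, 75 muscle genes had a control peak (61.5%, 52.6 to 69.6%), against 52.1% of protein-coding genes. After knockdown it was 31 (25.4%, 18.5 to 33.8%), against 17.3%, and at equal length 13 (10.7%, 6.33 to 17.4%), against 12.6%. So the full control list marked more muscle genes than the siMyolinc list, and the equal-length control list marked fewer. The shares of all protein-coding genes ran in the same order, so that order was not particular to muscle genes. Against their own backgrounds the full control and siMyolinc muscle shares stood above, and the equal-length share did not. The comparison lists stood at 12 of 20 neuronal, 10 of 19 hepatocyte and 9 of 24 ribosomal protein genes in control, at 3, 3 and 4 after knockdown, and at 6, 2 and 1 at equal length. At equal length the neuronal share (30.0%, 14.5 to 51.9%) thus stood above its background of 12.6%, and the muscle share did not.

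**Figure D5:**
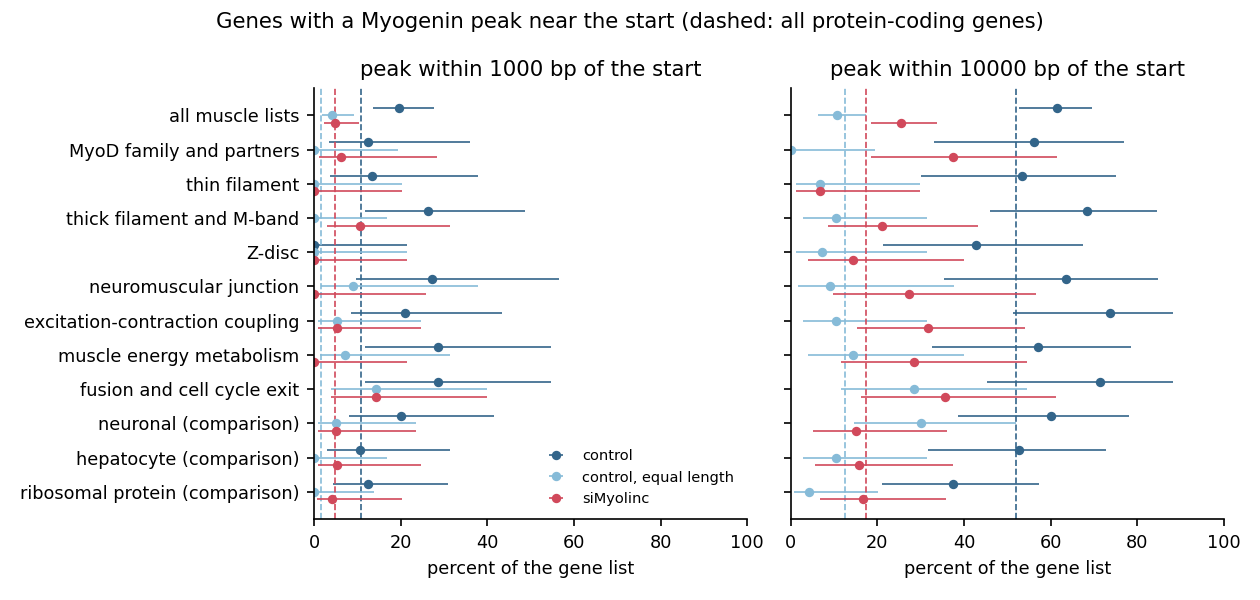
Percent of each gene list with a Myogenin centre within 1000 bp or 10000 bp of the start, with 95% Wilson intervals; dashed lines give the share of all protein-coding genes in the same list of peaks. All muscle lists together stand at 19.7%, 4.10% and 4.92% on the left and at 61.5%, 10.7% and 25.4% on the right, for control, equal-length control and siMyolinc.

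Among the transcription factors, Myod1, which encodes the founding member of the family, had a control peak at its promoter (chr7:46376227-46376445, -138 bp) with 9 tags, at a place met by 4 lists. After knockdown its nearest peak lay in intron 2, 1667 bp downstream of the start, with 34 tags (23.5 to 47.5, exact Poisson). Such intervals on tags, here and below, take each tag as an independent molecule and are too narrow where tags are PCR copies. Myf5, active early in the lineage, had its nearest control peak 31011 bp away and a siMyolinc peak in exon 1 (chr10:107485734-107485808, 363 bp downstream), with 96 tags (77.8 to 117). Tcf3, which encodes an E protein, had a control promoter peak at -484 bp with 9 tags and its nearest siMyolinc peak 3868 bp downstream with 191. Myog itself was named for 0 control peaks and for 1 siMyolinc peak, 9282 bp downstream of the start, with 81 tags. Of the 16 genes of this list, 9 (56.2%) had a control peak within 10000 bp, against 52.1% of protein-coding genes, and 6 (37.5%, 18.5 to 61.4%) a siMyolinc peak, against 17.3%. At equal length 0 of the 16 had a control peak, against 12.6%.

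More contractile genes were marked near the start in the full control list than after knockdown, as was so of all protein-coding genes. Within 1000 bp, control marked 2 of 15 thin filament and 5 of 19 thick filament and M-band genes, against 10.8% of protein-coding genes. The equal-length control list marked 0 of 15 and 0 of 19, against 1.61%, so these absences show nothing particular. The siMyolinc list marked 0 and 2, against 4.74%. For the thin filament, Actc1 (cardiac actin, also made in developing skeletal muscle) had 9 tags 81 bp downstream of the start and Tpm3 (a tropomyosin) 15 tags at -836 bp. For the thick filament and M-band, control peaks lay at Ttn (-114 bp, 19 tags), Mybph (-75 bp, 10 tags), Mybpc2 (a myosin-binding protein C, 4 bp downstream, 16 tags), Myom1 (-652 bp, 17 tags) and Myl4 (an embryonic light chain, 265 bp downstream, 7 tags). These 7 genes, named here for their control peaks, had 0 siMyolinc peaks within 10000 bp, where 17.3% of protein-coding genes have one. After knockdown the peaks of this list included one at Myom3 (chr4:135759630-135759704, -48 bp, 92 tags), whose nearest control peak lay at -9843 bp. Of the 14 Z-disc genes, 0 had a peak within 1000 bp in either condition, which allows a share of up to 21.5% by the Wilson interval.

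At the neuromuscular junction, control peaks lay at Musk (the agrin receptor kinase, 332 bp downstream, 20 tags, inside an LTR element), Dok7 (its activator, 564 bp, 23 tags) and Rapsn (the receptor-clustering protein, 87 bp, 13 tags). The nearest siMyolinc peak to Rapsn lay at -4620 bp with 182 tags, and Musk and Dok7 were named for 0 siMyolinc peaks. Of all 18605 genes named for a control peak, 49.8% were also named for a siMyolinc peak, so such absences were common. In excitation-contraction coupling, control marked Cacng1 (103 bp, 13 tags), Cacna2d1 (-856 bp, 46 tags), Jsrp1 (0 bp, 14 tags) and Srl (sarcalumenin, 648 bp, 20 tags). After knockdown the list had Bin1 (a T-tubule protein, -200 bp, 128 tags), with a control peak at -2681 bp and 17 tags. Within 1000 bp, control marked 3 of 11 junction and 4 of 19 coupling genes, against 10.8% of protein-coding genes. The equal-length control list marked 1 and 1, against 1.61%, and the siMyolinc list 0 and 1, against 4.74%.

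In energy metabolism, Ckm (muscle creatine kinase, 430 bp downstream, 19 tags, inside a satellite repeat), Pfkm (phosphofructokinase, -356 bp, 16 tags), Pgam2 (phosphoglycerate mutase, exon 1, 382 bp, 23 tags, a place met by 3 lists) and Fabp3 (a fatty acid carrier, 83 bp, 7 tags) were marked in control. Control thus marked 4 of the 14 genes within 1000 bp, against 10.8% of protein-coding genes. After knockdown 0 of the 14 were marked, against 4.74%, and the equal-length control list marked 1, Pgam2, against 1.61%. Of the paired fusion proteins, Mymk (myomaker) had a control peak 89 bp downstream of its start with 9 tags, and Mymx (myomixer) a siMyolinc peak at chr17:45602112-45602186, -47 bp, with 130 tags (109 to 154). The nearest siMyolinc peak to Mymk lay 12906 bp downstream, and the nearest control peak to Mymx at -20231 bp. The fusion and cell cycle list also held Rb1 (-425 bp, 8 tags), Itga7 (a laminin receptor, 912 bp, 23 tags) and Nfatc2 (-924 bp, 40 tags) in control, and Cdkn1c (a cell cycle inhibitor, 751 bp, 32 tags) after knockdown. Of its 14 genes, 4 were marked in control, 2 at equal length and 2 after knockdown, against the same backgrounds.

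The same distance held genes of the comparison lists. Control peaks lay at the neuronal genes Syp, Gria2, Grin2b and Nlgn1 (8 to 25 tags), at the hepatocyte genes Pck1 and Hpx (21 and 17 tags) and at the ribosomal protein genes Rpl19, Rpl27 and Rps19 (18, 17 and 16 tags). After knockdown they lay at Rbfox3 (156 tags), Pck1 (123 tags) and Rpl7 (129 tags). Pck1, which encodes a gluconeogenic enzyme, was the single gene of the 11 lists with a centre within 1000 bp in both conditions, at 763 bp in control and 279 bp after knockdown.

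In the full lists the favoured E-box was as frequent, within counting error, in promoters with a Myogenin peak as in promoters at large. CAGCTG, which reads the same on both strands, was searched in the 32851 RefSeq promoter windows of 300 bases (250 before the start, 50 after it), and 16.3% held it. Windows with a control centre inside held it in 110 of 614 cases (17.9%, 15.1 to 21.1%), and those with a siMyolinc centre in 48 of 305 (15.7%, 12.1 to 20.2%). The difference was -2.18 percentage points (-7.06 to 3.15), within counting error. In the equal-length control list it was 6 of 89 (6.74%, 3.13 to 13.9%), below the share in all windows. The general E-box CANNTG, which includes CAGCTG, was found in 72.3% of all windows, 73.6% with a control centre and 68.2% with a siMyolinc centre.

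These windows also differed in base composition, since the median GC content was 52.7% in all windows, 58.0% with a control centre, 49.3% at equal length and 60.3% with a siMyolinc centre. The part of base composition in the motif shares was not tested. Where a window held both a CAGCTG and a peak centre, the box lay within 50 bp of the centre in 39.1% of the control cases, 31.3% of the siMyolinc cases and 0 of 6 at equal length. How often unrelated places in such short windows lie that near was not tested. These shares therefore do not show that peaks centred on the box. The Mybph window, printed above, is a control case with the centre inside the box. A missing match says only that these letters are not in the window, and peaks away from promoters were not searched.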

How the data were processed

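The authors annotated peaks with HOMER on mm10, per the submitters' processing notes, and set each library against IgG, per the file headers. Aligner, settings and HOMER version: not given in the sources used here. The deposited peak score and focus ratio (a fraction) are the authors' own values, per the column names, and were used inside a list alone. Other columns gave position, class, nearest gene and distance to its start.

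Scores were divided by their smallest common step to give tags, with a rounding tolerance of 0.05 and the 1% highest scores set aside; 100% of the remaining scores came out whole. Centres were compared within 100 bp, with the density at 5000 to 10000 bp beside it. Of 19583 gene identifiers, 19537 matched RefSeq, as did 185 of 186 listed genes. The analysis ran in Python 3.11.15 with pandas 2.3.3, numpy 2.4.6 and scipy 1.17.1, and its steps were tested on simulated lists.

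Members and gene lists were chosen with earlier results of these data known, and support no result independently. Named genes were those of the lists with a centre within 1000 bp of the start, the 10 best-scoring promoter genes of each list, genes with promoter centres within 100 bp, and the 10 best shared sites outside repeats and recurrent places. Some genes that the rule names are not reported here. Other genes were named after their values were seen. The alternatives were equal length, the upper part of each list by score, lists without repeats or recurrent places, and other windows. Input and IgG signal was not analysed here.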

Additional observations from a re-analysis of the deposited data

Results flagged for a closer look

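The siMyolinc Myogenin list held 12 peaks on the mitochondrial genome, data outside the comparison, whereas the control Myogenin list held 0. The 12 peaks held 1962 tags in all, and the tallest held 333. Mitochondrial peaks were also listed in other libraries of both conditions, with 6 in control MyoD, 19 in siMyolinc MyoD, 1 in control polymerase and 4 in siMyolinc TDP-43.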

How the results depend on the processing

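No paired analysis was possible because each condition had 1 library. Over 7 results and 37 alternatives, 15 values stayed within counting error of the reported one (for a count, within 1.5 times), 21 moved beyond it and 1 turned a difference that stood beyond counting error. Differences are siMyolinc minus control, in percentage points, and the causes of the moves were not tested. Among peaks scoring at or above the list's median, the promoter difference was 0.829, the intergenic one -6.95 and that within 1000 bp of a start 1.60. The shared peaks were then 1.00% and the shared promoter genes 9. Without repeats the first 3 were 2.30, -10.7 and 4.79. At equal length the intergenic difference was -7.25, that within 1000 bp 3.93, the shared peaks 0.235%, the shared promoter genes 7 and the E-box difference 9.0, from -2.18. There the difference in muscle genes within 10000 bp turned from -36.1 to 14.8, and with a window of 1000 bp it was -14.8. Shares of all protein-coding genes differed in the same directions. Within 10000 bp they were 52.1% in control, 12.6% at equal length and 17.3% after knockdown. Within 1000 bp they were 10.8% in control and 4.74% after knockdown. Windows of 500 and 5000 bp around starts gave 2.74 and 5.74. Shared peaks were 0.695% within 50 bp, 5.59% within 500 bp and 2.00% by overlap. Promoters of 1000 and 5000 bp shared 138 and 1235 genes. The E-box windows around peak centres were not run, since no genome was used here. A control peak rests on a median of 15 tags, which limits the certainty of single sites.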

Other observations

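Chromosomes were occupied unevenly in both conditions. Control peaks stood between 31.9 per Mb on chromosome 7 and 57.9 on chromosome 15, and siMyolinc peaks between 5.05 on chromosome X and a highest value on chromosome 19, a 2.17-fold range against 1.82-fold in control. Across the 20 chromosomes the densities had a Pearson r of 0.859 and a Spearman rho of 0.844, a description of points that share a genome and its mappable length. With MyoD of the same condition the correlation was higher, 0.976 in control and 0.984 after knockdown. The likeness was thus not particular to the Myogenin lists. Genes named for the most peaks were adhesion genes with wide surroundings: Cdh8 (168 control peaks), Lrrc4c (154) and Cdh9 (144), with Lrrc4c also first after knockdown (25).

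MicroRNA genes of muscle were looked up after the data had been seen. Mir1a-1, which encodes the muscle microRNA miR-1, had a control promoter peak at -697 bp with 16 tags and a siMyolinc peak 1787 bp downstream with 202. Mir206 and Mir133b, which lie together, were named for 4 and 2 control peaks and for no siMyolinc peak, with the nearest at -9974 bp and 13931 bp. Mir133a-2 was named for 4 control peaks, the nearest 3290 bp downstream with 19 tags, and for no siMyolinc peak. Over all genes, 49.8% of the 18605 named for a control peak were also named after knockdown, so these absences show nothing particular. Mir499 had control and siMyolinc peaks 9836 and 9346 bp downstream (11 and 192 tags), and Mir486 at -7435 and -14965 bp (22 and 108 tags).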
